A study of Mus musculus with 2 samples.

Results

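BAFF and APRIL keep B cells and plasma cells alive, and 5 genes encode these ligands and their receptors: Tnfsf13b (BAFF), Tnfsf13 (APRIL), Tnfrsf13c (BAFF-R), Tnfrsf13b (TACI) and Tnfrsf17 (BCMA). They were taken by symbol from the 31053 genes of the count tables. The tables hold single-cell RNA-seq counts of kidney cells from MRL-lpr mice, which carry the lpr mutation of the death receptor gene Fas and develop lupus-like nephritis with age. There was 1 library of old and 1 of young mice, each from pooled kidneys, after magnetic enrichment of innate lymphoid cells and a sort for live cells. The labels give age only as old or young, and no strain without the lpr mutation was analysed here. With 1 library per age, age cannot be told apart from any other difference between the libraries, and no test between ages was possible. All intervals are 95% intervals of counting error alone. They do not cover differences between cells or between mice, so true errors can be larger.

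BAFF and APRIL belong to the tumor necrosis factor family and are released mainly by myeloid cells. BAFF-R binds BAFF alone and keeps mature B cells alive through the alternative NF-kappaB pathway, in which TRAF3 and its partners restrain the kinase NIK until the receptor is engaged. TACI binds both ligands, and BCMA sustains long-lived plasma cells. Excess BAFF drives autoantibody production in mice.

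The libraries held 11429 young and 10232 old cells that had 200 or more genes and no more than 20% mitochondrial UMIs (unique molecular identifiers, each a counted RNA molecule). Their UMIs summed to 145647185 and 119218130, with medians per cell of 7881 and 6933, and 26 barcodes occurred in both. Cells were gated by the number of marker genes with a UMI. The gates gave B cells (354 young, 155 old), plasma cells (4 young, 61 old), plasmacytoid dendritic cells (76 young, 53 old), dendritic cells (38 young, 5 old), macrophages or monocytes (216 young, 332 old), neutrophils (134 young, 122 old), T cells (614 young, 3978 old), group 2 innate lymphoid cells (ILC2s; 1540 young, 343 old) and proximal tubule cells (5780 young, 3398 old). Another 603 young and 620 old cells passed gates that do not belong together and were set apart as mixed. The enrichment shapes which cells are present, so cell numbers are not compared between ages. The study's methods name female mice, yet 50.8% of young and 40.6% of old cells had a UMI of a Y-linked gene and none of Xist. Some ratios between ages, of Tnfsf13b, Tnfrsf13b and Tnfrsf13c, are therefore also given for such Y-positive cells and for Xist-positive cells without Y-linked UMIs. The other ratios between ages were not split in this way.

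The gates were checked with genes that they did not use, apart from Jchain. Blk, a kinase of B cell receptor signaling, stood at 141 and 128 CPM (UMIs of the gene per 1000000 UMIs of the class, young value first) in B cells and at 17.2 and 0.797 CPM in T cells. Cd40, through which B cells receive T cell help, stood at 99.4 and 78.4 CPM in B cells and at 0.575 and 0.487 CPM in T cells. It also stood at 24.2 and 51.6 CPM in macrophages or monocytes and 44.2 and 56.6 CPM in endothelium. Dendritic cells held 0 CPM when young and 87.4 CPM when old, the latter in 5 cells. Immunoglobulin genes, with Jchain counted among them, took 65.5% and 65.1% of the UMIs of plasma cells but 1.99% and 1.78% of those of B cells. Jchain is also a marker of the plasma cell gate. Sdc1, the plasma cell surface proteoglycan CD138, stood at 141 and 147 CPM in plasma cells and at 5.64 and 1.005 CPM in B cells. Sdc1 also stood at 142 and 111 CPM in epithelium other than the proximal tubule, and young plasma cells were only 4. Il3ra, the interleukin 3 receptor chain CD123, stood at 48.4 and 57.7 CPM in plasmacytoid dendritic cells and at 4.23 and 25.1 CPM in B cells. It was higher, at 249.9 and 109.7 CPM, in basophils or mast cells. NK cells or ILC1s (38.3 and 25.8 CPM), macrophages or monocytes (31.6 and 28.2 CPM) and endothelium (36.2 and 40.4 CPM) also held it. Il3ra thus did not mark plasmacytoid dendritic cells alone. Cybb, a phagocyte oxidase subunit, stood at 1526 and 1829 CPM in macrophages or monocytes, 1267 and 1280 CPM in plasmacytoid dendritic cells and 132 and 463 CPM in B cells.

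On the GRCm38 assembly, Tnfsf13b occupies chr8:10006467-10039072 on the plus strand, and Tnfsf13 lies at chr11:69682846-69685784 on the minus strand. Tnfrsf13b lies at chr11:61126755-61149372 (plus), Tnfrsf13c at chr15:82221743-82224369 (minus) and Tnfrsf17 at chr16:11313812-11320074 (plus).

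The promoters of the receptors are shown because the results below compare these genes between cell classes. Each run has 250 bases before and 50 after the start site, from RefSeq (GRCm38.p6), which held promoters of all 5 genes. Capitals mark matches, on either strand, to a PU.1-type (GAGGAA), E2A-type (CAGGTG), EBF1-type (CCCNNGGG) or TATA motif (TATAAA).
Tnfrsf13c, chr15:82224331-82224630, minus strand: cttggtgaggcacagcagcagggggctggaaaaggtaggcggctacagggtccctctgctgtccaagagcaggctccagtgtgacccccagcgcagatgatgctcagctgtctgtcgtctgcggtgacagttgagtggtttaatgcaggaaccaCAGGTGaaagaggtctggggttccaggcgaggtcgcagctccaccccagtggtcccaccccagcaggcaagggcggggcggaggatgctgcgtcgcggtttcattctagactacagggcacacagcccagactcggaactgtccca
Tnfrsf13b, chr11:61126505-61126804, plus strand: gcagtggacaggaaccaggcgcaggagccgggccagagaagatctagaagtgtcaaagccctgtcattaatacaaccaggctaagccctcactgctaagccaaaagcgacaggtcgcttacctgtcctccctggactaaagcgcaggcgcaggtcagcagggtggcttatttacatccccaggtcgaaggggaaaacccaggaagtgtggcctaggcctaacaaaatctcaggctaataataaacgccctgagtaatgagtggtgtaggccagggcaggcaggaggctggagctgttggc
Tnfrsf17, chr16:11313559-11313858, plus strand: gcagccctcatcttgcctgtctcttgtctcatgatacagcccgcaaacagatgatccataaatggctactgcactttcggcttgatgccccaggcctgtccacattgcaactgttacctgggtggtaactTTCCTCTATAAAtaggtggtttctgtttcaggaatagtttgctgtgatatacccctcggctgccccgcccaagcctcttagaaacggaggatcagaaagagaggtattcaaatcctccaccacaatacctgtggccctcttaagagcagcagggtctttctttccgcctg
The Tnfrsf13c promoter held 1 E2A-type match. The Tnfrsf17 promoter held 1 TATA match and, next to it without overlap, 1 PU.1-type match on the opposite strand, and the Tnfrsf13b promoter held no match. Of 32851 promoters of this length, 20.2% held the E2A-type, 28.3% the PU.1-type, 13.7% the EBF1-type and 13.6% the TATA letters.

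Tnfsf13b transcripts lay mainly in myeloid cells at both ages. The gene had 68 UMIs in the whole young library and 206 in the old one, so its intervals are wide. Mixed cells held 23.5% (young) and 8.25% (old) of these UMIs. In the young library Tnfsf13b stood at 18.2 CPM (6.69 to 39.7, 6 UMIs) in neutrophils and 8.67 CPM (4.74 to 14.6, 14 UMIs) in macrophages or monocytes. In the old library it stood at 28.8 CPM (15.7 to 48.3, 14 UMIs) in neutrophils and 15.2 CPM (11.8 to 19.2, 70 UMIs) in macrophages or monocytes. These classes did not differ beyond counting error, with log2 ratios of macrophages or monocytes over neutrophils of -1.07 (-2.54 to 0.60) for the young library and -0.92 (-1.77 to 0.02) for the old. Young dendritic cells held 9.903 CPM (3.63 to 21.6, 6 UMIs), and cells past more than 1 myeloid gate held 19.96 CPM (young) and 18.2 CPM (old).

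Outside the myeloid classes Tnfsf13b was sparse. Macrophages or monocytes exceeded all other gated cells by a log2 ratio of 5.69 (4.602 to 6.73) when young and 3.92 (3.45 to 4.37) when old. Neutrophils and dendritic cells are among the other cells, and cells past more than 1 myeloid gate were left out of this ratio. Proximal tubule cells held most UMIs of the other cells, 105999998 when young and 64207764 when old. The ratio thus largely sets macrophages or monocytes against the proximal tubule. Proximal tubule cells, the background class for free RNA, stood at 0.0472 and 0.187 CPM. Plasmacytoid dendritic cells had 0 UMIs in either library, for which 3 UMIs would make 4.69 and 5.09 CPM. Young B cells also had 0 UMIs (3 UMIs would make 2.11 CPM), and old B cells held 4.02 CPM (1.095 to 10.3, 4 UMIs).

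Within macrophages or monocytes, Tnfsf13b was higher in cells that carried complement C1q, a product of tissue macrophages. Cells with UMIs of at least 2 of the 3 C1q genes held 26.6 CPM (12.8 to 49.005) in 72 young cells and 46.05 CPM (33.7 to 61.4) in 47 old cells. Cells without a C1q UMI held 3.29 CPM (0.896 to 8.42) in 141 young cells and 6.53 CPM (4.14 to 9.79) in 281 old cells. The C1q-bearing cells were thus higher by log2 ratios of 3.02 (1.22 to 5.15) when young and 2.82 (2.07 to 3.61) when old, and neither interval reached 0. The transcript was uneven among old cells: 41 of 332 had a UMI, 29 of these had 1, and a single cell had 11.

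Between ages, Tnfsf13b in macrophages or monocytes stood at 8.67 and 15.2 CPM (young, then old), a log2 ratio of 0.81 (-0.03 to 1.75), whose interval reached just below 0. It was 0.79 (-0.22 to 1.94) in C1q-bearing cells, 0.99 (-0.56 to 2.98) in cells without a C1q UMI and 0.93 (-0.19 to 2.24) in Y-positive cells. With 1 more marker required per class it was 1.03 (0.20 to 1.97), and with the cells of more than 1 myeloid gate added it was 0.40 (-0.23 to 1.08). Xist-positive cells had 0 UMIs in 44 young cells and 20 UMIs in 102 old cells. In neutrophils the ratio was 0.66 (-0.81 to 2.33).

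Old T cells held more Tnfsf13b than young T cells. Young T cells had 1 UMI in 614 cells (0.287 CPM), and old T cells had 63 UMIs in 56 of 3978 cells (2.79 CPM, 2.14 to 3.57), which was 30.6% of the gene's UMIs in that library. The log2 ratio of old over young, 3.28 (0.75 to 8.61), rested on the single young UMI, and in Y-positive cells it was 1.62 (-1.11 to 7.03). Xist-positive T cells had 0 UMIs in 113 young cells and 31 UMIs in 1704 old cells. Old macrophages or monocytes were above old T cells by 2.44 (1.93 to 2.96), and old T cells were above old proximal tubule cells by 3.901 (2.996 to 4.93). Old T cells with UMIs of Cd4 and not Cd8 held 4.76 CPM (3.24 to 6.76), those with Cd8 and not Cd4 2.38 CPM (1.43 to 3.71) and those with neither 1.101 CPM (0.475 to 2.17). Cells with Cd4 exceeded those with neither by 2.11 (0.96 to 3.45). In the T cell gate 4 of 10 macrophage markers had UMIs when young and 9 when old. They summed to 23.3 and 28.5 CPM, with per-cell sums from 0 to 6 and from 0 to 11 UMIs. Monocyte markers (7 and 11 of 11 with UMIs) summed to 730 and 862 CPM there, with up to 45 and 182 UMIs in a cell. The part of either list in the T cell value was not tested.

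**Figure D1:**
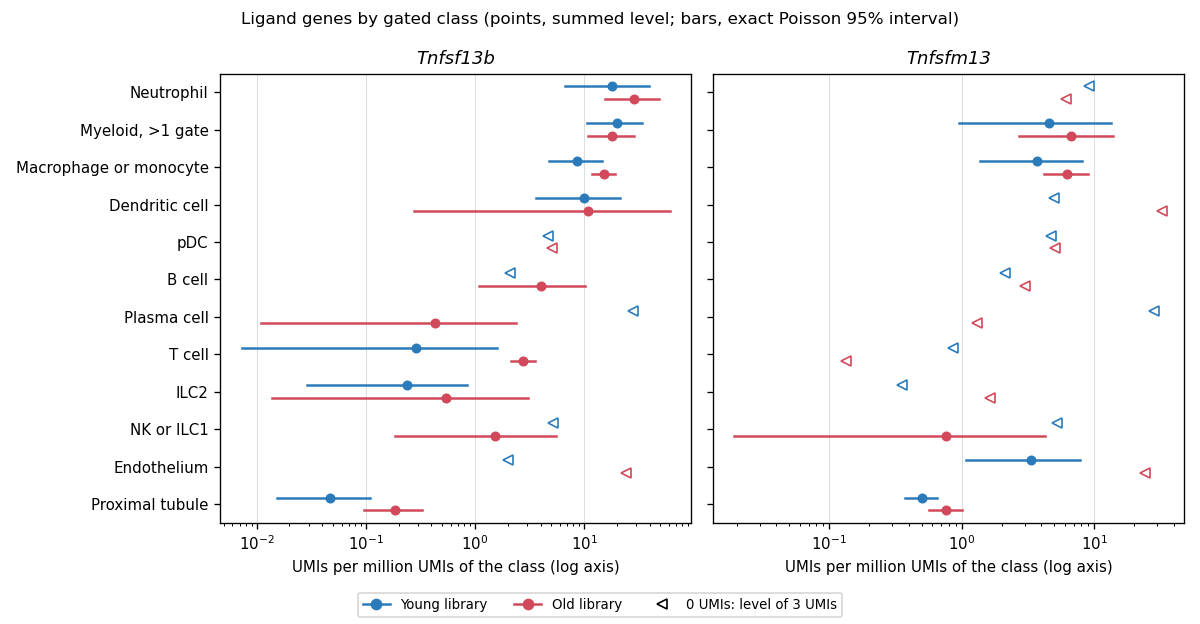
Levels of Tnfsf13b (left) and Tnfsfm13 (right) in each gated class, in UMIs per 1000000 UMIs on a log axis, blue for the young and red for the old library. Points are summed levels, bars exact Poisson 95% intervals, and open triangles mark 0 UMIs at the level of 3 UMIs; neutrophils, macrophages or monocytes and cells past more than 1 myeloid gate stand at 8.67 to 28.8 CPM of Tnfsf13b, and T cells stand at 0.287 (young) and 2.79 CPM (old).

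**Figure D2:**
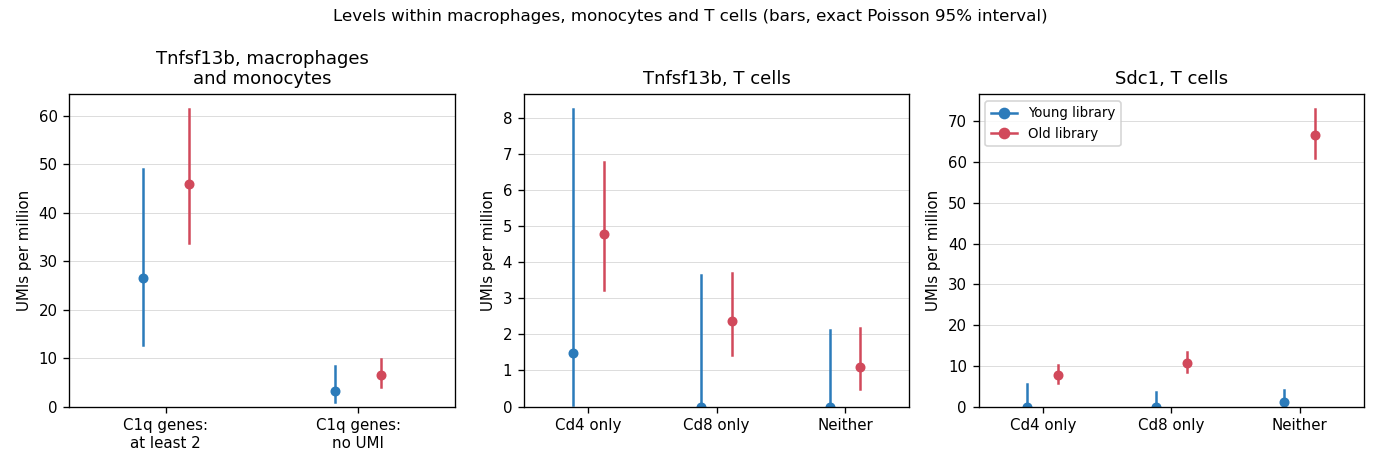
Levels of Tnfsf13b in macrophages or monocytes by C1q genes (left), of Tnfsf13b in T cells by Cd4 and Cd8 UMIs (middle) and of Sdc1 in the same T cells (right), in UMIs per 1000000, blue for the young and red for the old library, with exact Poisson 95% intervals. C1q-bearing cells stand at 26.6 and 46.05 CPM, and old T cells with neither Cd4 nor Cd8 stand at 66.8 CPM of Sdc1.

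APRIL itself was barely counted. Tnfsf13 had 10 UMIs in the young library, 7 of them in proximal tubule cells and 1 in macrophages or monocytes, and 4 in the old one, 2 and 2 of them in those classes. In the GENCODE M21 annotation the gene lies inside Tnfsfm13, a readthrough gene on the same strand at chr11:69682577-69696098 that also spans Tnfsf12, the gene of the related ligand TWEAK. Of the 1637 exonic bases of Tnfsf13, 983 (60.05%) also belong to Tnfsfm13, and the other 654 form 1 run at its 5' end, chr11:69685131-69685784. The assay reads 3' ends, and Cell Ranger leaves out reads that fit more than 1 gene. The log2 ratio of macrophages or monocytes over all other gated cells was 3.47 (-2.03 to 6.43) when young and 4.42 (0.63 to 8.203) when old, and the ratio of old over young in macrophages or monocytes was -0.51 (-4.78 to 5.37), on 1 and 2 UMIs.

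Tnfsfm13 had more UMIs, 79 and 104, and which transcripts these reads came from was not determined. It stood at 3.72 CPM (1.36 to 8.09, 6 UMIs) in young and 6.29 CPM (4.21 to 9.03, 29 UMIs) in old macrophages or monocytes, a log2 ratio of old over young of 0.76 (-0.54 to 2.32). Proximal tubule cells stood lower, at 0.50 and 0.763 CPM, and macrophages or monocytes exceeded them by 2.89 (1.39 to 4.11) and 3.04 (2.33 to 3.73). T cells, B cells, plasmacytoid dendritic cells, ILC2s and neutrophils had 0 UMIs in both libraries. Young endothelium stood at 3.35 CPM (1.09 to 7.82, 5 UMIs), close to young macrophages or monocytes, and old endothelium had 0 UMIs in 18 cells. Proximal tubule cells held 67.1% and 47.1% of the gene's UMIs. Against T cells taken at 3 UMIs, macrophages or monocytes were 4.31-fold higher when young and 47.3-fold higher when old. The exact intervals, with T cells at 0, began at 2.54-fold and 36.1-fold.

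BAFF-R transcripts stood highest in B cells. Tnfrsf13c stood at 357 CPM (327 to 389.8, 507 UMIs) in young and 228 CPM (199 to 259.8, 227 UMIs) in old B cells, which held 73.1% and 45.5% of all its UMIs. Mixed cells held 15.99% and 23.8% of its UMIs. In the old library plasma cells held 14.6% and T cells 13.8%. T cells stood at 1.44 and 3.06 CPM, and B cells exceeded them by log2 ratios of 7.96 (6.73 to 9.59) and 6.22 (5.83 to 6.63). Plasmacytoid dendritic cells held 12.5 CPM (5.396 to 24.6, 8 UMIs) when young and 6.79 CPM (1.85 to 17.4, 4 UMIs) when old, and proximal tubule cells 0.104 and 0 CPM. As counted, 61.02% of young and 65.2% of old B cells had a UMI, at median depths of 3762 and 5784 UMIs, against 0.121% and 0% of proximal tubule cells at 15502.5 and 15862.5. With every cell thinned to 1000 UMIs, the shares of B cells were 27.9% (23.2 to 32.9) for young and 17.6% (11.96 to 24.6) for old, so the order of the libraries was the opposite of that as counted.

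Tnfrsf13c was lower in old than in young B cells, by a log2 ratio of -0.65 (-0.88 to -0.42). The ratio was -0.58 (-0.94 to -0.23) in Y-positive and -0.91 (-1.300 to -0.54) in Xist-positive cells. B cells with a UMI of Ighd, the immunoglobulin D heavy chain of mature unswitched cells, held 311 CPM (young) and 259.5 CPM (old), a ratio of -0.26 (-0.54 to 0.01). B cells without one held 526 CPM in 71 young cells and 173 CPM in 52 old cells, a ratio of -1.601 (-2.05 to -1.17). Genes on the marker lists of other classes also differed between the libraries within the B cell gate. Whether these UMIs came from other cells, and their part in the ratio, was not tested. Dendritic cell markers (5 and 5 of 10 with UMIs) summed to 3572 and 4587 CPM. Monocyte markers (9 and 6 of 11 with UMIs) summed to 575 and 1366 CPM, those of plasmacytoid dendritic cells (7 and 7 of 9) to 689 and 1443 CPM, those of plasma cells (11 and 11 of 11) to 832 and 1107 CPM and those of the proximal tubule (10 and 10 of 10) to 4431 and 1276 CPM. Within a library, cells with Ighd over cells without had a ratio of -0.76 (-1.03 to -0.48) when young and 0.58 (0.15 to 1.02) when old, which differ in sign.

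TACI transcripts were spread over more classes. Tnfrsf13b stood at 252 CPM (214 to 294, 161 UMIs) in young and 305 CPM (262 to 354, 180 UMIs) in old plasmacytoid dendritic cells, and at 208 CPM (185 to 233, 295 UMIs) and 172 CPM (147 to 199.6, 171 UMIs) in B cells. The log2 ratio of B cells over plasmacytoid dendritic cells was -0.28 (-0.56 to 0.01) when young, which included 0, and -0.83 (-1.14 to -0.52) when old. In the plasmacytoid dendritic gate 5 of 9 B cell markers had UMIs at each age, with summed levels of 116 and 79.8 CPM, and their part in the value was not tested. As counted, 85.5% and 88.7% of these cells had a Tnfrsf13b UMI at median depths of 8252.5 and 11269 UMIs, against 0.104% and 0.118% of proximal tubule cells. Thinned, the shares were 22.4% (13.6 to 33.4) and 26.9% (15.6 to 41.02).

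Other myeloid and lymphoid classes held TACI transcripts too. Macrophages or monocytes stood at 71.3 CPM (58.8 to 85.5, 115 UMIs) when young and 45.98 CPM (39.99 to 52.6, 212 UMIs) when old. T cells stood at 18.1 and 20.2 CPM and ILC2s at 14.5 and 18.1 CPM, and these did not differ beyond counting error (log2 ratio of ILC2s over T cells -0.32, -0.77 to 0.14, and -0.16, -0.72 to 0.35). ILC2s exceeded proximal tubule cells, at 0.0755 and 0.0623 CPM, by 7.58 (6.56 to 8.83) and 8.18 (6.69 to 10.14). B cells exceeded T cells by 3.52 (3.13 to 3.94) and 3.09 (2.83 to 3.35). Neutrophils stood at 9.11 and 10.3 CPM, and NK cells or ILC1s at 8.71 and 6.84 CPM. Mixed cells held 19.6% and 20.5% of the gene's UMIs.

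Among old T cells, Tnfrsf13b stood at 30.4 CPM (26.5 to 34.7) in cells with neither Cd4 nor Cd8 UMIs, a group that can hold both the double-negative T cells known to accumulate in lpr mice and cells whose Cd4 or Cd8 transcripts were missed. It stood at 24.7 CPM (21.1 to 28.9) in cells with Cd4 alone and 7.75 CPM (5.94 to 9.94) in cells with Cd8 alone. Cells with neither exceeded cells with Cd8 alone by a log2 ratio of 1.97 (1.56 to 2.403).

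By age, Tnfrsf13b was lower in old macrophages or monocytes, with a log2 ratio of -0.63 (-0.97 to -0.29). It was -0.70 (-1.18 to -0.20) in Y-positive and -0.81 (-1.46 to -0.13) in Xist-positive cells. It was -1.31 (-2.12 to -0.50) in C1q-bearing cells, at 71.9 and 29.03 CPM, and -0.48 (-0.86 to -0.09) in cells without a C1q UMI. B cell markers in this gate summed to 67.5 CPM (young) and 23.4 CPM (old), and their part in the ratio was not tested. In B cells the ratio was -0.27 (-0.56 to 0.00), in plasmacytoid dendritic cells 0.28 (-0.03 to 0.60), in T cells 0.16 (-0.22 to 0.56) and in ILC2s 0.32 (-0.28 to 0.89), none of which was clear of 0. The B cell ratio was clear of 0 in 3 other settings, at -0.37 (-0.64 to -0.10) with 1 more marker required, -0.28 (-0.56 to -0.0058) at 500 or more genes per barcode and -0.28 (-0.56 to -0.0012) without immunoglobulin genes in the total. In Y-positive and Xist-positive cells it was -0.33 (-0.78 to 0.11) and -0.26 (-0.72 to 0.19) for B cells and 0.12 (-0.29 to 0.52) and -0.05 (-0.82 to 0.80) for plasmacytoid dendritic cells.

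**Figure D3:**
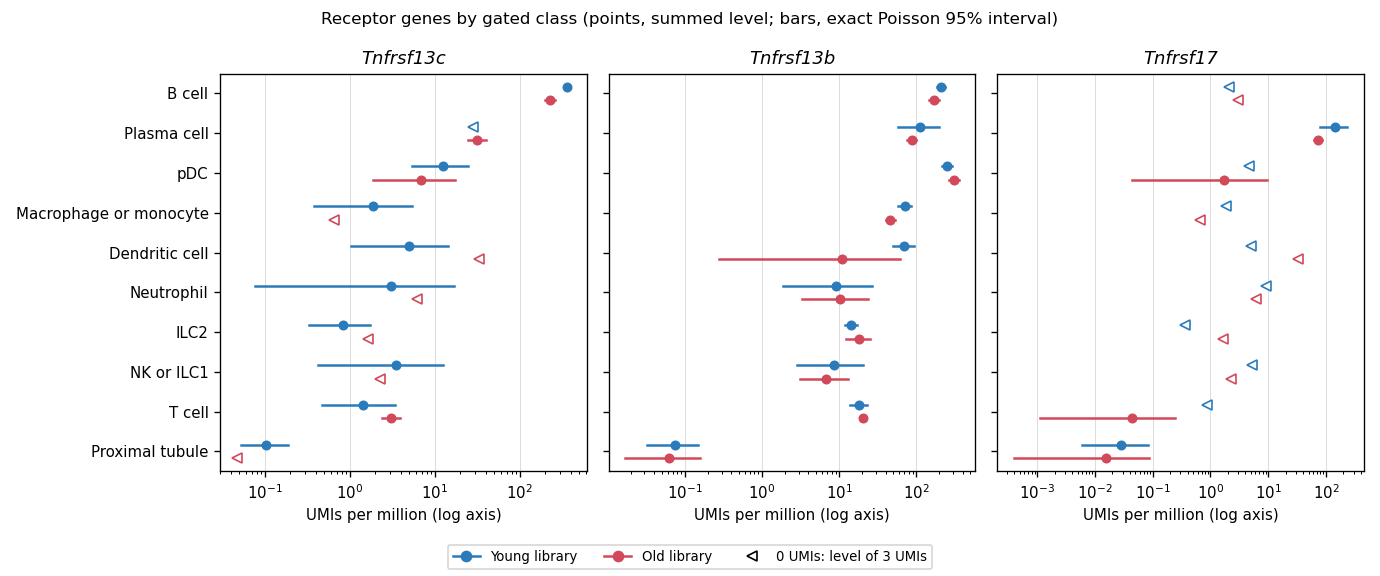
Levels of the 3 receptor genes in each gated class, in UMIs per 1000000 on log axes, blue for the young and red for the old library, with exact Poisson 95% intervals and open triangles for 0 UMIs at the level of 3 UMIs (pDC, plasmacytoid dendritic cell). Tnfrsf13c is highest in B cells and Tnfrsf17 in plasma cells. Tnfrsf13b stands at 172 to 305 CPM in plasmacytoid dendritic cells and B cells. Without immunoglobulin genes in the total, Tnfrsf13b in plasma cells stands at 327 CPM (169 to 571, in 4 cells) when young and 250.2 CPM when old. B cells stand at 212 CPM (189 to 238) and 175 CPM on that total, so the young intervals overlap.

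BCMA transcripts lay in plasma cells and in mixed cells, most of them in plasma cells when old and in mixed cells when young. Tnfrsf17 stood at 72.1 CPM (61.6 to 83.96, 167 UMIs) in old plasma cells, with a UMI in 35 of 61 cells, and at 141 CPM (78.96 to 233, 15 UMIs) in the 4 young ones. B cells had 0 UMIs in both libraries. With B cells taken at 3 UMIs, plasma cells were 66.7-fold higher when young and 23.9-fold higher when old. The exact intervals, with B cells at 0, began at 47.9-fold and 19.2-fold. Counts were uneven among old plasma cells, with 26 cells at 0 and a highest of 25 UMIs. Plasma cells held 31.2% of the gene's UMIs when young and 67.6% when old. Mixed cells held 29 UMIs in 3 young and 77 UMIs in 18 old cells, and each other gated class held at most 3.

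Within old plasma cells, Tnfrsf17 stood at 105 CPM (86.9 to 125) in the 30 cells without UMIs of the proliferation genes Mki67 and Top2a and at 40.2 CPM (29.5 to 53.4) in the 31 cells with one, a log2 ratio of 1.38 (0.89 to 1.903). Tnfrsf13c stood at 38.3 CPM in old plasma cells that also passed the B cell gate and at 18.7 CPM in the others, a ratio of 1.03 (0.20 to 1.96). For Tnfrsf17 that ratio was 0.31 (-0.18 to 0.82). The levels in these splits are on totals that include immunoglobulin genes, and the part of those genes in the ratios was not tested.

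Old plasma cells held 31.5 CPM (24.7 to 39.7, 73 UMIs) of Tnfrsf13c and 87.3 CPM (75.6 to 100.2, 202 UMIs) of Tnfrsf13b. For Tnfrsf13b the log2 ratio of plasma over B cells was -0.98 (-1.28 to -0.68) when old, but its direction depended on the total. With immunoglobulin genes left out of the total, old plasma cells stood at 250.2 CPM and old B cells at 175 CPM, and the ratio turned to 0.52 (0.22 to 0.82). Tnfrsf13c remained lower in old plasma cells on that total, at 90.4 against 232 CPM. The old over young ratio of Tnfrsf17 in plasma cells was -0.97 (-1.73 to -0.10), and it was -0.13 (-0.93 to 0.77) without the barcodes of most UMIs, a setting that kept 81 of the 167 old UMIs. With 1 more marker required it was -1.601 (-2.14 to -1.02), on 34 young UMIs.

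Receptors also met in single cells. Of young B cells, 30.2% (25.5 to 35.3) had UMIs of both Tnfrsf13c and Tnfrsf13b, 30.8% of Tnfrsf13c only and 16.7% of Tnfrsf13b only. Of old B cells, 41.3% (33.5 to 49.5) had both, 23.9% Tnfrsf13c only and 18.7% Tnfrsf13b only. Thinned to 1000 UMIs, 6.32% (4.004 to 9.42) of young and 2.61% (0.717 to 6.56) of old B cells had both, with overlapping intervals. Of old plasma cells, 27.9% (17.1 to 40.8) had all 3 receptors, 24.6% Tnfrsf17 and Tnfrsf13b, and 6.56% none, at a median depth of 37807 UMIs. Thinned to 1000 UMIs, none of the 61 had all 3 or had Tnfrsf17 and Tnfrsf13b together (0%, up to 5.87%), and 78.7% had no receptor. Of plasmacytoid dendritic cells, 80.3% and 81.1% had Tnfrsf13b only as counted, and 22.4% and 26.9% when thinned.

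**Figure D4:**
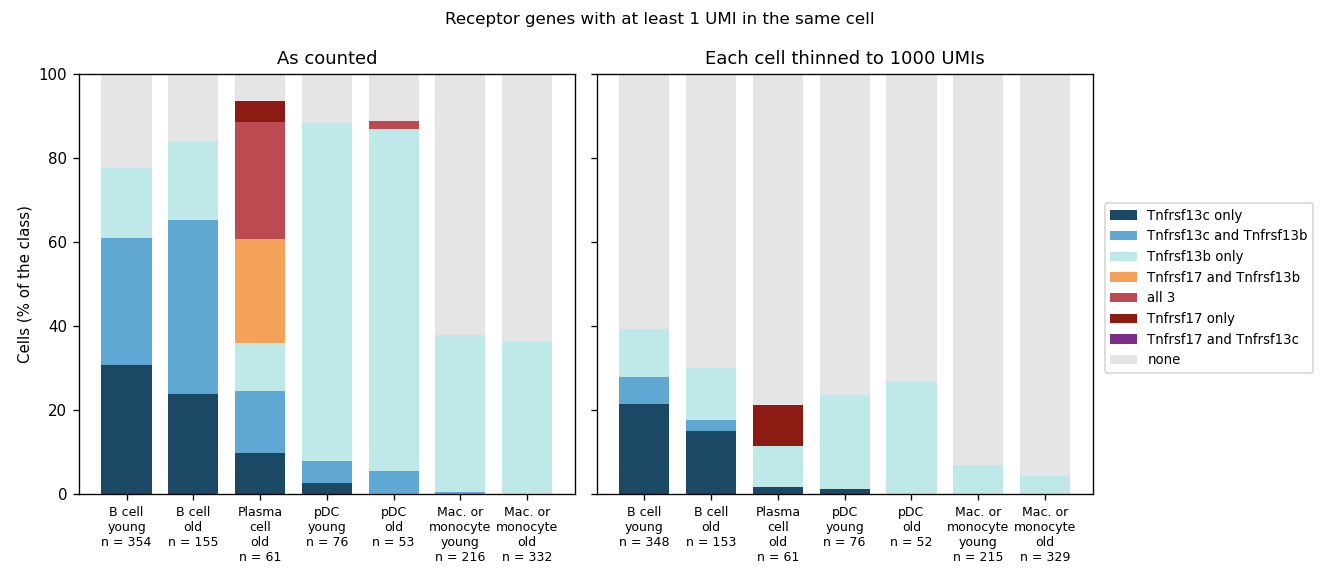
Percentage of the cells of a class with at least 1 UMI of the receptor genes in the key, as counted (left) and with each cell thinned to 1000 UMIs (right), n being the number of cells. The share of B cells with both Tnfrsf13c and Tnfrsf13b is 30.2% (young) and 41.3% (old) as counted, and 6.32% and 2.61% when thinned.

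Across the whole table, genes with at least 20 UMIs over both libraries were read against a 2-fold limit between ages. In B cells 0 of 2 members with that many UMIs passed it, beside 12.1% of 8038 genes, and in macrophages or monocytes 0 of 2, beside 12.5% of 9610 genes. In T cells 2 of 3 members were at least 2-fold higher in the old library, beside 7.89% of 12468 genes (16.2% either way). These were Tnfsf13b (1 and 63 UMIs) and Tnfrsf13c (5 and 69 UMIs), which both reached the minimum through the old library alone, where they are higher, so nothing is read from their count. Tnfrsf13c stood at 1.44 and 3.06 CPM, and its log2 ratio of 1.09 (-0.20 to 2.76) was not clear of 0. Plasmacytoid dendritic cells, neutrophils and ILC2s each had 1 member with enough UMIs, which did not pass, beside 6.18%, 16.3% and 10.3% of genes.

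Genes around and below these receptors were read from a list of 28. In B cells 24 had enough UMIs, 2 were at least 2-fold higher in the old library, beside 4.3% of all genes, and 0 lower, beside 7.75%, with a median log2 ratio of 0.19 against -0.13 over all genes. They were Traf1, a signaling adaptor, at 21.1 and 121 CPM (log2 ratio 2.51, 1.92 to 3.14), and Bcl2a1b, an antiapoptotic relative of BCL2, at 40.2 and 161 CPM (log2 ratio 2.001, 1.56 to 2.46). Bcl2a1b has near-identical copies, so its counts are uncertain. Components of the alternative pathway stood close together: Traf3, which restrains NIK, at 31.7 and 37.2 CPM (log2 ratio 0.23, -0.44 to 0.89), and Nfkb2, the precursor that the pathway processes, at 59.2 and 68.3 CPM (log2 ratio 0.21, -0.28 to 0.69). The survival genes Bcl2 and Mcl1 stood at 87.4 and 125 CPM (log2 ratio 0.51, 0.14 to 0.88) and 674 and 481 CPM (log2 ratio -0.49, -0.65 to -0.33).

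In macrophages or monocytes 25 of the 28 had enough UMIs, with a median of 0.28 against -0.02 over all genes. Of these, 0 were at least 2-fold lower in the old library, beside 6.67% of all genes, and 6 were higher, beside 5.79%. They were Sdc1, Cd40, Traf1, Nfkb2, Relb and Bcl2a1b, of which Sdc1 (1 and 75 UMIs) reached the minimum through the old library alone. The list's median was also above that of all genes in plasmacytoid dendritic cells (0.40 against 0.02) and in proximal tubule cells (0.27 against 0.004296). In proximal tubule cells 4 of the list were higher, beside 4.49% of all genes, and 0 lower, beside 3.81%. In macrophages or monocytes Nfkb2 stood at 31.6 and 75.5 CPM (log2 ratio 1.26, 0.83 to 1.71). Relb, its partner, stood at 36.6 and 81.3 CPM (log2 ratio 1.15, 0.75 to 1.57). Furin, a protease that processes BAFF and APRIL, stood at 99.8 and 158 CPM (log2 ratio 0.66, 0.41 to 0.92).

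Sdc1, whose heparan sulfate chains bind APRIL, was also found in old T cells. They held 27.6 CPM (25.5 to 29.9), with a UMI in 415 of 3978 cells, and young T cells had 2 UMIs in 614 cells, a log2 ratio of 5.59 (3.73 to 8.63). Old T cells with neither Cd4 nor Cd8 UMIs held 66.8 CPM (60.9 to 72.96), against 7.68 CPM with Cd4 alone and 10.8 CPM with Cd8 alone, and the interval of the first overlapped neither of the others. Markers of plasma cells in the T cell gate (11 and 11 of 11 with UMIs) summed to 169 and 459 CPM, with up to 15 and 439 UMIs in a cell. Those of epithelium other than the proximal tubule (7 and 8 of 10) summed to 24.4 and 134.5 CPM, with up to 5 and 167 UMIs. The part of either list in the Sdc1 value was not tested. In T cells 27 of the list had enough UMIs, and Furin, Sdc2, Sdc4 and Blk were at least 2-fold lower in the old library, beside 8.29% of all genes. Blk (60 and 18 UMIs) had fewer than 20 UMIs in the old library.

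**Figure D5:**
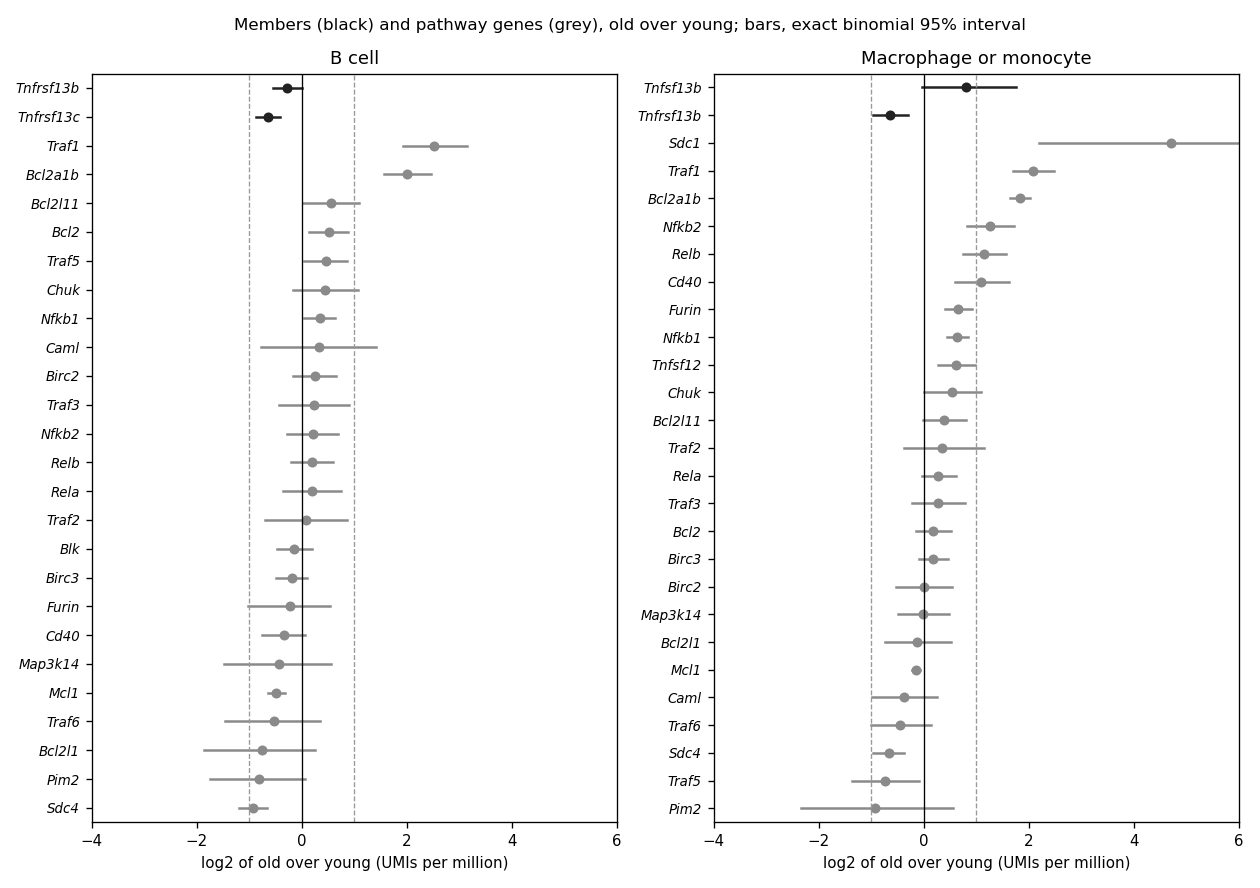
Log2 ratio of old over young for members (black) and pathway genes (grey) with at least 20 UMIs, in B cells (left) and macrophages or monocytes (right), with exact binomial 95% intervals and dashed lines at 2-fold. The interval of Sdc1 runs past the axis, and Tnfrsf13c in B cells lies at -0.65 and Traf1 at 2.51.

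B cell state genes described the old B cells further. Of 16 genes 11 had enough UMIs, 1 was at least 2-fold higher in the old library and 4 were lower, beside 4.3% and 7.75% of all genes, with a median log2 ratio of -0.54. Cd80, a costimulatory ligand, stood at 4.93 and 34.2 CPM (log2 ratio 2.79, 1.596 to 4.21). Fcer2a, the CD23 of follicular B cells, stood at 268 and 74.4 CPM (log2 ratio -1.85, -2.23 to -1.49), and Bcl6, the germinal center regulator, at 26.1 and 4.02 CPM (log2 ratio -2.698, -4.65 to -1.22). Cd93 and the proliferation gene Mki67 were the other lower genes, at 35.9 and 13.1 CPM and 87.4 and 15.1 CPM. Of these 5, Fcer2a alone had 20 or more UMIs in each library. Cd80 (7 and 34 UMIs), Bcl6 (37 and 4 UMIs), Cd93 (51 and 13 UMIs) and Mki67 (124 and 15 UMIs) reached the minimum through the library where they are higher.

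The genes most like each member were sought over 24 points of class and library, as Pearson's r of log2(CPM + 1) among 13298 genes, as a description, since the points share 2 libraries. For Tnfsf13b they were Tgfbi (0.95), Il1b (0.95), Lst1 (0.94), and for Tnfsf13, with 13 UMIs in gated cells, Mrc1 (0.85), Mmp12 (0.79), Fn1 (0.77). Mrc1 and Fn1 are gate markers of macrophages and of monocytes. For Tnfrsf13c they were Ighd (0.91), Fcmr (0.89), Pax5 (0.88), of which Fcmr and Pax5 are gate markers. For Tnfrsf13b they were Ighm (0.95), Map4k1 (0.94), Ctss (0.89), and for Tnfrsf17 the immunoglobulin genes Igkv5-45 (0.96), Igkv10-96 (0.91), Iglv1 (0.90). Plasma cells formed a point only in the old library, so the values for Tnfrsf17 rest largely on that point.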

How the data were processed

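Single-cell RNA-seq (10x 3' v3.1) of kidney cells was analysed from 1 old and 1 young library. The authors aligned reads to mm10 with Cell Ranger (3.1.0 in the file headers), and the deposited values are raw counts of UMIs for each gene and cell, without normalization. The annotation they counted with is not given in the sources used here, and positions were read from GENCODE M21. A barcode was kept at 200 or more genes and up to 20% mitochondrial UMIs. Classes came from 17 marker lists, and the number of markers required, such as 4 of 10 for B cells and 7 of 11 for plasma cells, was set after seeing the data, at the trough of the number detected per barcode. No doublet caller was run, and barcodes past incompatible gates were set apart as mixed.

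UMIs were summed per class and given per 1000000 (CPM) with exact Poisson intervals, shares with exact Clopper-Pearson intervals and log2 ratios with exact binomial intervals (all 95%). A count of 0 was bounded at 3 UMIs. Shares were repeated with cells thinned to 1000 UMIs (seed 7), leaving out shallower cells. The ratio and likeness calculations were tested on simulated data. The members, gene lists and markers were chosen with earlier results of these data known. Named genes were the members, 28 pathway and 16 B cell state genes, and for each member the 3 genes of highest correlation, among genes with at least 200 UMIs over points with at least 30 cells. Tnfsfm13 and the splits within classes were added after values were seen. Python 3.11.15, NumPy 2.4.6, SciPy 1.17.1, pandas 2.3.3 and Matplotlib 3.10.9 were used.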

Additional observations from a re-analysis of the deposited data

How the results depend on the processing

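The 15 log2 ratios of ligand source, receptor and age were recomputed with 1 more marker per class, a 10% mitochondrial limit, 500 genes per barcode, the top 5% of barcodes by UMIs left out, the mean CPM of cells and other totals. Chosen after seeing the data were leaving out shared barcodes, moving the cells of more than 1 myeloid gate, leaving out the cell of most Tnfsf13b UMIs and splitting cells by Y-linked and Xist UMIs. Of these values 128 moved by less than the counting interval and 6 moved further, none with a change of sign in a ratio clear of 0. The cause of these moves was not tested. With the mean CPM of cells the Tnfsf13b source ratio was 4.48 (young) and 2.83 (old) and Tnfrsf13b in old B over T cells 3.36. Without the top barcodes the old Tnfsf13b source ratio was 3.22. With B cells taken at 3 UMIs, Tnfrsf17 in old plasma over B cells was 4.18. Its totals left out hemoglobin, ribosomal protein and mitochondrial genes and Malat1. In Xist-positive B cells Tnfrsf13c old over young was -0.91. Without immunoglobulin genes in totals, Tnfrsf13b in plasma over B cells turned to 0.62 (young) and 0.52 (old). The young value rests on 12 UMIs in 4 plasma cells. On that total the young intervals, 169 to 571 CPM in plasma cells and 189 to 238 CPM in B cells, overlapped. The mean CPM of cells gave no value for Tnfrsf17 in plasma over B cells, since B cells were at 0.

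Shares differed with the thinning depth. At 500 UMIs, 2000 UMIs and without thinning, Tnfrsf13c in B cells was 17.5%, 43.7% and 61.02% (young) and 7.097%, 31.8% and 65.2% (old), and Tnfrsf13b 9.89%, 33.8% and 46.9% (young) and 7.097%, 28.4% and 60% (old). Tnfrsf17 in old plasma cells was 3.28% at 500 UMIs and 57.4% without thinning. Genes past 2-fold in B cells, macrophages or monocytes and plasma cells numbered 969, 1197 and 998, but 402, 686 and 505 at a minimum of 50 UMIs and 2113, 2168 and 1940 at 5. Low counts limit Tnfsf13b and Tnfsf13, and few cells limit young plasma cells. No paired analysis was possible because there is 1 library per age.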

Other observations

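Mixed cells past the plasma gate, 3 young and 32 old, held 529 CPM (354 to 760.1) and 52.8 CPM (41.7 to 65.99) of Tnfrsf17. All cells past that gate, 7 young and 93 old, held 273 and 64.7 CPM, a log2 ratio of old over young of -2.08 (-2.55 to -1.58).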
